A study of Mus musculus with 37 samples.

Results

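Gastrocnemius muscle of 8-week-old mice lacking Nampt in skeletal muscle was compared with that of wild-type mice of the same age. The comparison used every library labelled with that age, which was 11 of the 37 libraries in the series: 6 from knockout animals (HOM-39 to HOM-44, genotype label SMNKO) and 5 from wild-type animals (WT-34 to WT-38). The design text names a skeletal muscle specific Nampt knockout and mice of 2, 4, 6 and 8 weeks. The knockout effect at 8 weeks is set beside that at 4 weeks, from 5 knockout and 6 wild-type libraries of that age. No treatment is recorded for any animal, and the strain, the Cre driver, the deleted exons and the genotype of the wild-type animals beyond that name are not given in the sources used here. All knockout libraries and 4 wild-type libraries were labelled male, and WT-35 was labelled female. Each library carried its own animal number. The p-values of the fit measure the spread between animals of the same genotype and age. That spread was estimated over all 37 libraries, not over the 11 of 8 weeks alone. The question stated by the series title concerns NAD+ salvage through NAMPT in mitochondrial function and muscle fibre integrity.

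NAMPT is the rate-limiting enzyme of the salvage pathway that turns nicotinamide, the product left by NAD-consuming enzymes, back into nicotinamide mononucleotide and then NAD+. NAD+ carries electrons from glycolysis, fatty acid oxidation and the TCA cycle to the respiratory chain, and sirtuins and poly(ADP-ribose) polymerases use it up. Skeletal muscle can also make the mononucleotide from nicotinamide riboside through the kinases NMRK1 and NMRK2. Damaged muscle is known to recruit macrophages, to activate satellite cells and to express embryonic and neonatal myosins in newly formed fibres.

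Reads were counted per gene, and 16728 of 50686 genes passed the filter on low counts. Total counts ran from 5192700 to 20122887 in the wild-type libraries and from 13422624 to 20760973 in the knockout libraries. WT-34 and WT-35 stood apart, with 20.3% and 23.1% of their counts in nuclear ribosomal RNA genes against at most 0.401% in the other 9 libraries, and with the lowest totals. WT-36 stood apart in fibre type, with Myh7, the slow myosin heavy chain, at 9293 CPM (counts scaled to a common effective library size) and Myh4, the fast type 2B chain, at 6596 CPM, against 130.1 to 659 CPM and 49569 to 63935 CPM in the other wild-type libraries. The library labelled HOM-42 carried a male label but had Xist at 199 CPM and the Y-linked Ddx3y at 0.253 CPM. The fit was therefore repeated without WT-34, WT-35 and WT-36, which leaves WT-37 and WT-38 as the wild type. Its value is given for named genes whose call it ended or whose fold it moved by more than 1.5 times, and values without 1 library likewise. The sex label was not used in the fit. In sequencing pool A the 8-week wild type was WT-34 and WT-35 alone, and in pool B it was WT-36, WT-37 and WT-38. Values for pool A below therefore compare the knockout only with the libraries rich in ribosomal RNA, and values for pool B include WT-36. The first principal component held 54.6% of the variance and separated the genotypes.

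Of the 16728 genes tested, 8790 (52.5%) passed an adjusted p of 0.05 in edgeR's quasi-likelihood test with Benjamini-Hochberg adjustment. These were 4385 genes (26.2%) that were higher and 4405 genes (26.3%) that were lower in the knockout, and a share of this size is the background for every count below. The knockout was more than 2-fold higher for 2125 genes (12.7%) and more than 2-fold lower for 1150 genes (6.87%). All 6 knockout libraries lay above all 5 wild-type libraries for 2262 genes (13.5%) and below them for 1783 genes (10.7%). Without WT-34, WT-35 and WT-36 the counts were 3855 higher (23%) and 3812 lower (22.8%) of 16736 genes. The split depended on the scaling: TMM factors gave 49.9% of the called genes as higher and edgeR's RLE factors 52.5%, whereas library totals alone gave 95.5%, or 10718 higher and 501 lower. The median log2 fold change of all tested genes was 0.03 with TMM factors, 0.06 with RLE factors and 0.82 with library totals alone. Changes below are relative to the TMM median, and values from library totals alone are to be read against 0.82.

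Nampt (ENSMUSG00000020572.8, chr12:32819545-32853349, plus strand, GRCm38) was checked first. It was at 220.3, 169.7, 182, 213 and 236 CPM in WT-34 to WT-38, and the knockout libraries ranged from 46.5 to 56.0 CPM with a median of 48.5. No knockout library overlapped the wild type. The means were 204 ± 27.5 (SD, n = 5) and 49.3 ± 3.40 CPM (SD, n = 6), so that 24.2% of the wild-type level was left in tissue that also holds cells other than fibres. The log2 fold change was -2.04 (SE 0.11, adjusted p = 7.36e-16), and an exact two-sided permutation test over the 11 libraries gave p = 0.00216, the smallest that 6 against 5 libraries allow. It was -1.95 in sequencing pool A and -2.08 in pool B.

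**Figure D1:**
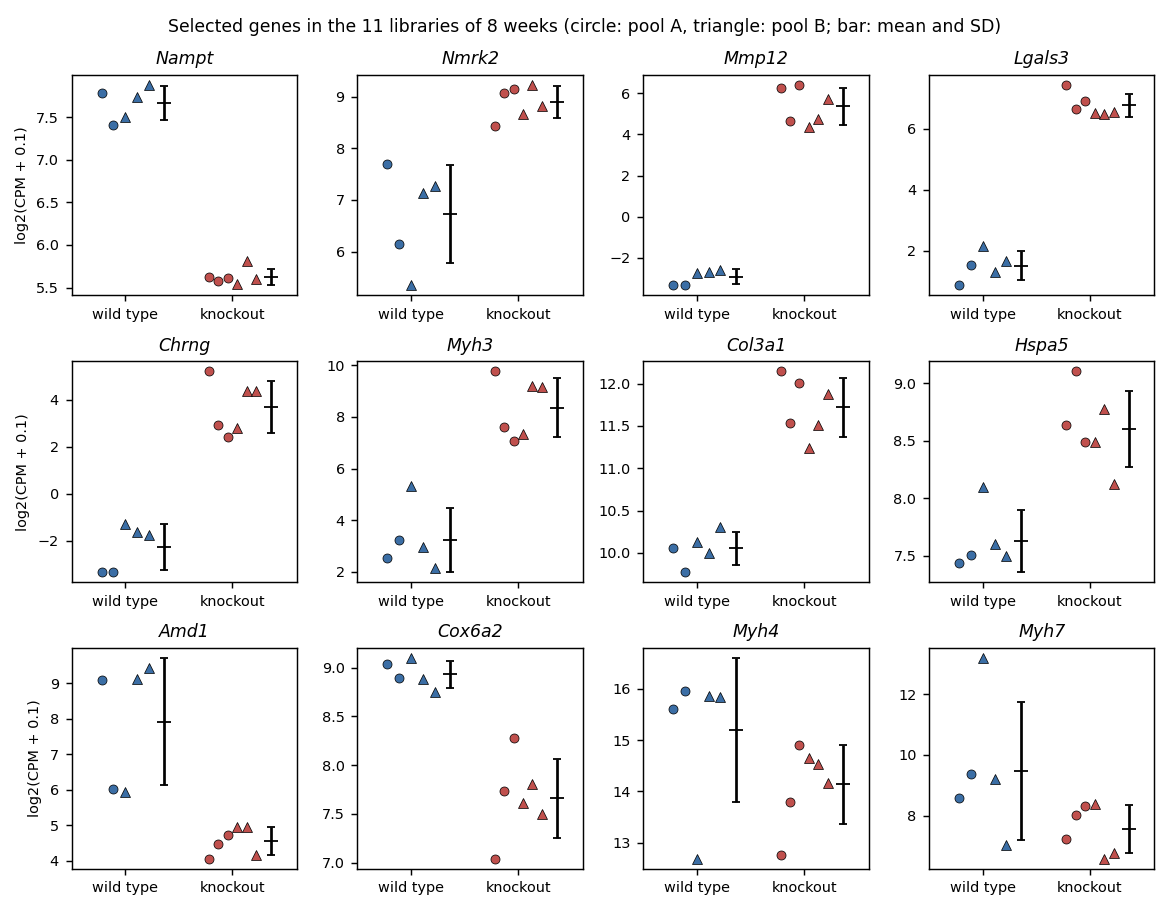
Level of 12 genes in each of the 11 libraries as log2(CPM + 0.1), wild type in blue and knockout in red, with circles for pool A, triangles for pool B, and bars for the mean and SD. Nampt fell and Mmp12, Lgals3, Chrng, Myh3, Col3a1 and Hspa5 rose without overlap between the groups, whereas Myh4 and Myh7 overlapped, and WT-36 lay far from the other wild-type libraries in both.

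Among the 17 tested genes of NAD synthesis and salvage, Nampt included, 7 rose and 8 fell, with a median log2 fold change of 0.21 (-0.15 in pool A and 0.10 in pool B) against 0.03 for all genes. Without HOM-44, 5 fell. Nmrk2, the muscle nicotinamide riboside kinase, had the largest rise of the list. It stood at 207, 71.2, 40.8, 139.8 and 154 CPM in WT-34 to WT-38 and at 345 to 601 CPM (median 493) in the knockout, with all 6 knockout libraries above all wild-type libraries. Its log2 fold change was 1.98 (SE 0.42, adjusted p = 0.000279), and it was 1.87 in pool A and 2.10 in pool B. Nnmt, which methylates nicotinamide, rose (log2 fold change 1.08, 1.86 without WT-36 and 1.83 without WT-34, WT-35 and WT-36), and so did Naprt, which starts NAD+ synthesis from nicotinic acid (0.60). Nadk2, the mitochondrial NAD+ kinase, fell from 39.2 ± 3.84 to 17.1 ± 3.67 CPM (SD, n = 5 and 6), a log2 fold change of -1.18, and the 6 knockout libraries lay below every wild-type library. Nt5e, an ecto-nucleotidase that cleaves the mononucleotide, fell as well (-0.97). Slc25a51, the mitochondrial NAD+ carrier, was lower with TMM factors (-0.45) and higher with library totals alone (0.41).

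Of the 19 NAD-consuming enzymes tested, 8 rose and 4 fell, with a median of -0.09 (0.34 in pool A and -0.04 in pool B). Parp14, an interferon-inducible mono-ADP-ribosyltransferase, rose from 17.2 ± 3.71 to 34.7 ± 4.60 CPM (SD, log2 fold change 0.97), and its partner in that response Parp9 rose by 0.61 on the log2 scale. Bst1, a relative of CD38, was at 0.152 to 0.869 CPM in the wild type and 0.798 to 6.46 CPM in the knockout (2.52, adjusted p = 0.00447), and the adjusted p was 0.07 without WT-34, WT-35 and WT-36. Cd38 (-0.12, adjusted p = 0.553) and Sirt1 (-0.09, adjusted p = 0.528) did not pass. Sirt3, the mitochondrial deacetylase, was lower with TMM factors (-0.66) and higher with library totals alone (0.13), and Parp1 likewise (-0.40 and 0.46).

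The 14 largest rises among well-measured genes included genes known from macrophages and from developing muscle. Mmp12, the macrophage elastase, was at 0, 0, 0.0508, 0.0563 and 0.0658 CPM in WT-34 to WT-38 and at 20.2 to 86.0 CPM (median 40.2) in the knockout. Its 3 counts over the wild-type group against 6577 gave a ratio of 985 with a 95% exact interval of 337 to 4778, which covers counting error only. Next came Mymk, the fusion protein myomaker (log2 fold change 6.51), Chrng, the embryonic acetylcholine receptor subunit (6.08), Myh8, the neonatal myosin heavy chain (5.81), Trem2, a receptor of lipid-laden macrophages (5.67), and Mt2, a metallothionein (5.25). Shisal1 (5.04), Myh3, the embryonic myosin heavy chain (4.89), Lgals3, a galectin of macrophages (4.89), the metalloprotease Adam8 (4.84), the integrin Itgax (4.72), Mpeg1, a perforin-like protein of macrophages (4.55), Myl4, an embryonic myosin light chain (4.51), and Card14 (4.45) completed the list. All 6 knockout libraries lay above all wild-type libraries for each of these 14 genes. The genes were chosen by the size of their change in the same libraries, so this separation is no further support. Lgals3 was at 1.74, 2.77, 4.37, 2.36 and 3.09 CPM in the wild type and 89.1 to 174 CPM (median 97.6) in the knockout. Mt2 was at 0.845 to 1.74 CPM in the wild type and 15.2 to 107 CPM in the knockout, and Card14 varied likewise among the knockout libraries (4.55 to 53.9 CPM), its log2 fold change being 3.82 without HOM-42. Without WT-34, WT-35 and WT-36 the value was 6.39 for Myh8, 6.16 for Myh3 (6.02 without WT-36 alone) and 5.04 for Trem2.

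The 14 largest falls included enzymes of polyamine metabolism. Amd1, adenosylmethionine decarboxylase, was at 547, 64.7, 60.9, 561 and 692 CPM in WT-34 to WT-38 and at 16.5 to 31.1 CPM (median 24.1) in the knockout. WT-35, the only wild-type library labelled female, and WT-36, labelled male, were far below the other 3 wild-type libraries. Both were still above every knockout library, and the part of sex was not tested. The log2 fold change of Amd1 was -3.97 (SE 0.43, adjusted p = 1.46e-08), and near-identical copies of this gene may share its reads. Smox, spermine oxidase, followed the same pattern with 735, 104, 50.8, 443 and 698 CPM in the wild type and 24.4 to 102 CPM (median 43.1) in the knockout, with 4 knockout libraries below every wild-type library (-3.03). Amy1, an amylase with near-identical copies, fell from 19.7 ± 4.82 to 1.58 ± 0.579 CPM (-3.72), and Ces1d, a carboxylesterase of a tandem cluster, from 24 ± 17 to 2.91 ± 1.68 CPM (-3.04). Ostn, the secreted peptide musclin, fell from 13.5 ± 1.61 to 1.6 ± 0.552 CPM (-3.06). Efcab6 (-3.36), Htra4 (-3.99), Barx2, a homeobox factor of muscle (-3.74), and Fer1l6 (-2.93) were also below the wild type in all 6 knockout libraries. WT-36 held the highest Barx2 level of the wild type, 32.5 CPM, and the log2 fold change was -2.91 without it. Without WT-34, WT-35 and WT-36 the value was -2.81 for Barx2, -2.45 for Ces1d and -4.61 for Amd1.

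In the other 5 of the 14, WT-36 was low and overlapped the knockout. Cdh4, a cadherin, was at 16.1, 29.3, 1.02, 28.6 and 12.8 CPM in the wild type and 0.485 to 1.36 CPM in the knockout (-4.20), and Fgfbp1, a secreted FGF carrier that fibres supply to the neuromuscular junction, was at 13.0, 16, 0.508, 16.9 and 13.9 CPM against 0.329 to 1.87 CPM (-3.32). Mss51, a gene of glycolytic fibres, was at 9.91 CPM in WT-36 and 26.5 to 191 CPM in the other wild-type libraries, and at 4.95 to 17.3 CPM in the knockout (-3.14). Gdap1 (-2.93) and Tspan8 (-2.87) showed the same low WT-36. Without WT-34, WT-35 and WT-36 these 5 log2 fold changes were -4.32, -3.73, -4.07, -3.45 and -3.03, and that of Mss51 was -2.52 without WT-38. Passing in the same direction without WT-34, WT-35 and WT-36 was a condition for naming all 14 falls, so it is no separate check.

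All 25 tested macrophage and monocyte markers rose, 24 of them more than 2-fold, with a median log2 fold change of 2.97 against 0.03 for all genes. All 25 also lay above every wild-type library in all 6 knockout libraries. Their summed level was 228 to 303 CPM in the wild type and 1336 to 2802 CPM in the knockout, and the median was 3.52 in pool A, 2.95 in pool B and 3.73 with library totals alone. C1qb, a chain of the complement starter C1q made by tissue macrophages, was at 13.9, 10.8, 8.54, 8.56 and 14.3 CPM in the wild type and 58.8 to 128 CPM (median 76.9) in the knockout (2.85, SE 0.25, adjusted p = 1.23e-10). C1qa (2.5) and C1qc (2.30) rose with it. Adgre1, the F4/80 antigen, rose from 6.25 ± 1.76 to 64.0 ± 23.1 CPM (3.17), Ctss, a lysosomal protease, from 7.34 ± 0.916 to 151 ± 55.3 CPM (4.22), and Csf1r, the receptor of the macrophage growth factor, from 31.8 ± 6.32 to 116 ± 40.2 CPM (1.85). Cd163, a scavenger receptor of resident macrophages, had the smallest change of those named (0.69). In bulk tissue, more cells of a type and more RNA per cell cannot be told apart.

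Few lymphocyte and neutrophil markers passed the test. Of 17 lymphocyte markers, 3 rose and none fell (1 rose without HOM-43 or without HOM-44), with a summed level of 2 to 5 CPM in the wild type and 3 to 7 CPM in the knockout. Cd3e, the T cell receptor chain, was at 1.18 ± 0.984 CPM in the wild type and 0.346 ± 0.191 CPM in the knockout (adjusted p = 0.0688), and without WT-36 the difference passed (adjusted p = 0.0081). Its log2 fold change was -1.56, and -0.76 without WT-38. Cd4, which macrophages can also carry, rose from 0.219 ± 0.134 to 1.51 ± 0.867 CPM (2.41, adjusted p = 0.0338), but it did not pass without any 1 of 8 of the 11 libraries (adjusted p 0.0507 to 0.0751) or, with an adjusted p of 0.16, without WT-34, WT-35 and WT-36. Of 12 neutrophil and mast cell markers, 2 rose (1 without WT-36 or without HOM-40), with sums of 9 to 22 CPM in the wild type and 13 to 27 CPM in the knockout, and Csf3r, the granulocyte colony-stimulating factor receptor, was one of them (2.89).

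Of 25 genes of inflammatory signalling, 20 rose and none fell (median 2.62, 2.74 in pool A and 2.34 in pool B). Ccl8, a monocyte chemokine, was at 0 to 0.461 CPM in the wild type and 5.30 to 13.9 CPM in the knockout (4.94), and Cxcl16, another chemokine, rose from 2.20 ± 0.471 to 11.8 ± 4.65 CPM (2.34). Tgfb1, the fibrogenic growth factor, rose from 4.01 ± 1.06 to 18 ± 6.20 CPM (2.02). Il1rn, the antagonist of the interleukin-1 receptor, had 2 counts over the wild-type group and 731 over the knockout group, a ratio of 164 (95% exact interval 45.3 to 1359), and Il1b had 1 and 212 counts, a ratio of 95.3 (95% exact interval 16.9 to 3780). The fitted values of both rest on these few wild-type counts: Il1rn was at 6.32, 8.98 without WT-38 and 5.31 without WT-34, WT-35 and WT-36, and Il1b was at 5.35, 7.20 without WT-37 and 4.54 without those 3 libraries. Ccl2, the main monocyte attractant, ranged from 1.36 to 32.2 CPM in the knockout and 0.0658 to 1.23 CPM in the wild type (3.82). In the complement list 8 of 15 rose, the C1q chains and the receptors C3ar1 (3.67) and C5ar1 (2.68) among them, whereas C3 (0.05, adjusted p = 0.942) and Serping1, the inhibitor of C1 (0.27, adjusted p = 0.0636), did not pass. Serping1 did pass without WT-38 (0.33) or without HOM-42 (0.36). The median of the complement list was 1.01 (1.92 in pool A and 0.86 in pool B).

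Of 23 interferon-response genes, 18 rose and none fell, with a smaller median of 0.74 (1.01 in pool A and 0.72 in pool B). Irf7, the factor that amplifies type I interferon, was at 3.48, 4.31, 5.59, 4.05 and 4.08 CPM in the wild type and 9.0 to 20.2 CPM (median 16.2) in the knockout, without overlap (1.78, SE 0.21, adjusted p = 1.70e-08). Oasl2 (1.86), Stat2, a subunit of the interferon-activated transcription factor (1.17), and the membrane tether Bst2 (0.97) rose too.

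**Figure D2:**
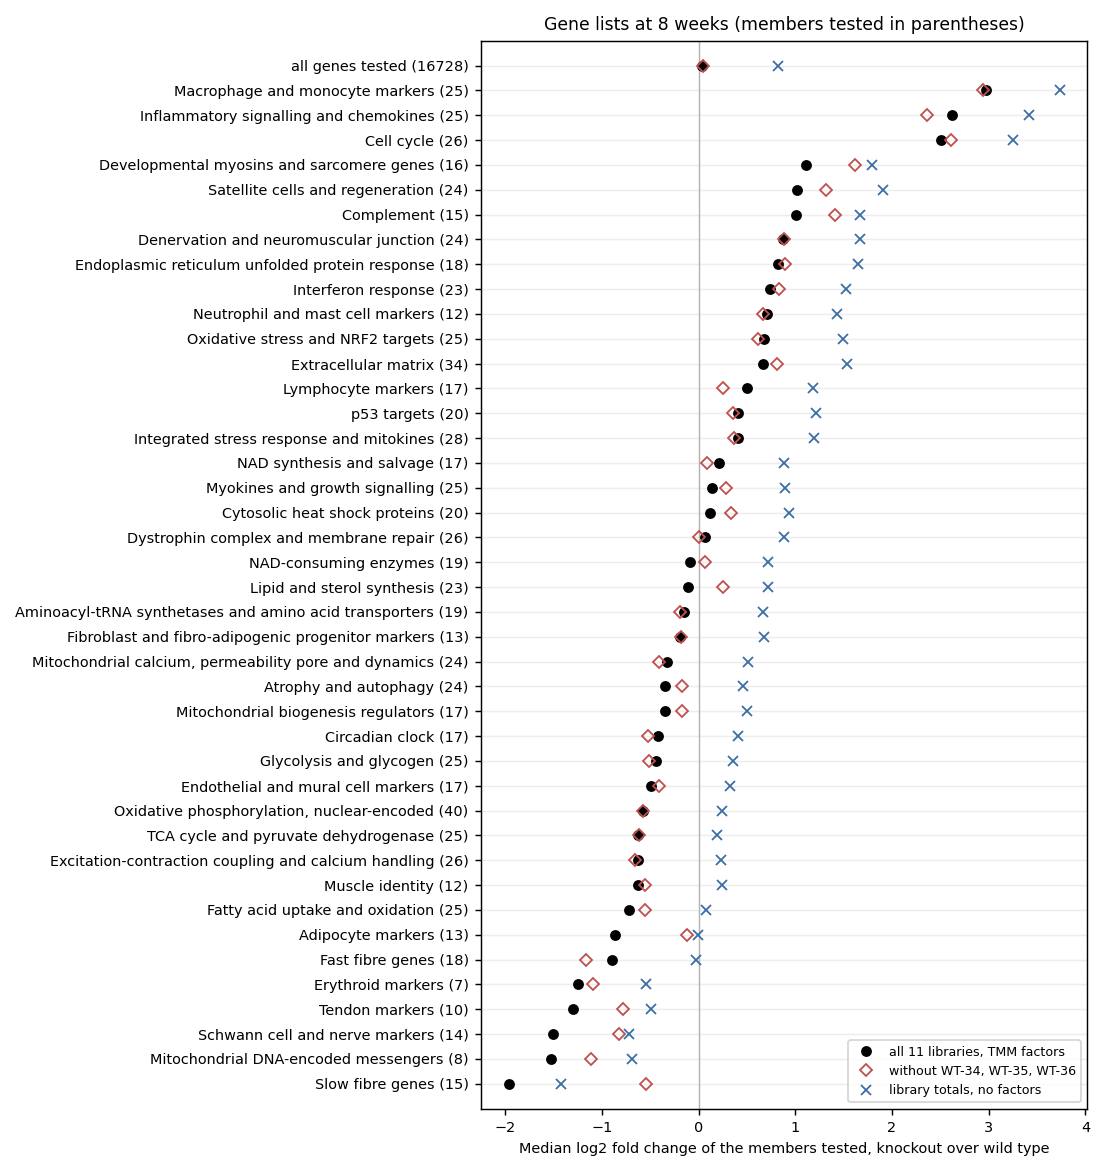
Median log2 fold change (knockout over wild type, x axis) of the tested members of each gene list (y axis, number tested in parentheses), with all 11 libraries and TMM factors (dots), without WT-34, WT-35 and WT-36 (diamonds), and with library totals alone (crosses). Macrophage, inflammatory and cell cycle lists lay above 2 in all 3 settings, whereas the medians of oxidative phosphorylation, TCA cycle, fatty acid and calcium-handling genes were below 0 with TMM factors and above 0, at less than the 0.82 of all genes, with library totals alone.

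Of 26 cell cycle genes, 23 rose, 20 of them more than 2-fold, with a median of 2.51 (3.12 in pool A and 2.23 in pool B). Mki67, the proliferation antigen, was at 4.34, 2.16, 1.78, 2.98 and 0.592 CPM in the wild type and 17.8 to 90.4 CPM (median 26) in the knockout, above the wild type in all 6 (3.83, SE 0.65, adjusted p = 1.85e-05). Top2a, the mitotic topoisomerase (3.67), Cdk1, the mitotic kinase (3.54), Bub1b, a spindle checkpoint kinase (2.98), Tyms, thymidylate synthase (2.18), and the replication helicase subunits Mcm6 (1.97) and Mcm3 (1.62) all rose. Ccne2, a G1 cyclin, was lower with TMM factors (-0.55) and higher with library totals alone (0.28), and it did not pass without WT-37 (-0.44). HOM-39 had the highest summed cell cycle level, 2.71 above the wild-type median on the log2 scale, against 1.17 to 1.85 in the other knockout libraries.

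Genes of satellite cells and regeneration rose in 18 of 24 cases, 12 of them more than 2-fold, and 1 fell (median 1.02, 1.32 without WT-34, WT-35 and WT-36). Pax7, the marker of quiescent satellite cells, rose from 3.8 ± 0.952 to 7.46 ± 1.56 CPM (0.95), and Myod1, which commits them to muscle, from 11.3 ± 1.97 to 38.6 ± 15.8 CPM (1.71). Myog, which drives their differentiation, was at 5.21, 4.93, 6.00, 4.17 and 3.29 CPM in the wild type and 20.7 to 99.2 CPM (median 42.4) in the knockout (3.35, SE 0.32, adjusted p = 1.22e-09). The proteins that fuse myoblasts were barely counted in the wild type: Mymk was at 0 to 0.869 CPM in the wild type and 7.96 to 48.2 CPM in the knockout, and Mymx had 3 and 940 counts over the groups, a ratio of 141 (95% exact interval 48.0 to 684). Igf2, a fetal growth factor, rose from 16.2 ± 8.66 to 318 ± 208 CPM (4.39), whereas Igf1 did not pass (-0.12, adjusted p = 0.668). Without WT-34, WT-35 and WT-36 Igf2 was at 5.16 and the fitted value of Mymx went from 6.82 to 7.47 (7.64 without WT-36 alone). The fall of Chodl (-0.71) was not found without WT-34, WT-35 and WT-36 (-0.32, adjusted p = 0.24), and with library totals alone it was 0.11.

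In the list of denervation and neuromuscular junction genes, 15 of 24 rose and 3 fell, with a median of 0.87 (0.95 in pool A and 0.91 in pool B). The muscle acetylcholine receptor is built from Chrna1, Chrnb1, Chrnd and either the embryonic subunit Chrng or the adult subunit Chrne, and innervated adult fibres shut the embryonic gene off. Chrng was at 0, 0, 0.305, 0.225 and 0.197 CPM in WT-34 to WT-38 and at 5.30 to 36.9 CPM (median 14) in the knockout (6.08, SE 0.57, adjusted p = 4.87e-10). Chrna1 was at 21.7, 21.6, 32.2, 16.3 and 14.1 CPM in the wild type and 48.0 to 138 CPM (median 91.9) in the knockout (2.09), and Chrnd rose from 3.08 ± 1.62 to 12.7 ± 5.14 CPM (1.97, and 2.56 without WT-34, WT-35 and WT-36). Chrne was at 8.29 ± 1.94 and 9.39 ± 3.08 CPM and did not pass (0.17, adjusted p = 0.385). Ncam1, an adhesion molecule of denervated fibres (2.27), the factor Runx1 (2.88) and Ache, acetylcholinesterase (1.0), rose, and Musk, the receptor kinase that gathers the receptors, rose by 0.54. Musk did not pass without WT-34, WT-35 and WT-36 (0.32, adjusted p = 0.23) or without WT-35 alone (0.38, adjusted p = 0.068). Dach2, a repressor that denervation is known to lower, was at 8.26, 3.70, 20.5, 4.67 and 4.28 CPM in the wild type and at most 0.232 CPM in the knockout, with 582 and 12 counts over the groups (ratio 0.00926, 95% exact interval 0.00476 to 0.0163). WT-36 gave 403 of the 582 counts, and the fitted log2 fold change went from -6.26 to -5.58 without it and to -5.19 without WT-34, WT-35 and WT-36. Hdac4, which mediates the denervation response, did not pass (0.00, adjusted p = 0.983).

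The 250 bases before the RefSeq transcription start of Chrng and Chrna1 are shown because both genes rose together and myogenic factors such as MYOD1 and MYOG, which also rose, bind the letters CANNTG (the E-box). Chrng lies on the plus strand, chr1:87205561-87205810, and Chrna1 on the minus strand, chr2:73580339-73580588 (RefSeq, GRCm38.p6). Both are written 5′ to 3′ toward the gene, with CANNTG matches in capitals.
Chrng: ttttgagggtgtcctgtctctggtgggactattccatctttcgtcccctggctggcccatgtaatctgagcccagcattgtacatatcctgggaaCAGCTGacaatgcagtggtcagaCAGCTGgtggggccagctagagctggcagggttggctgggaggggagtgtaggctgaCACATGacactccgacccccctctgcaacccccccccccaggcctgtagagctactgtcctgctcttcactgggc
Chrna1: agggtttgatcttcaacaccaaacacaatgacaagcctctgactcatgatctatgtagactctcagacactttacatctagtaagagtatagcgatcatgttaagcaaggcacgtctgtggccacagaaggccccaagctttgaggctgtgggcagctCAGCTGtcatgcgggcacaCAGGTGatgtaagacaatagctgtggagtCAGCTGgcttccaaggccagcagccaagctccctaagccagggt
Each window held 3 matches, at 155, 132 and 75 bases before the start in Chrng and at 92, 73 and 44 bases in Chrna1, and 2 of the 3 in each were CAGCTG. Among the 27 genes of the denervation, developmental and regeneration lists that rose more than 2-fold, 17 had a window of 300 bases (250 before to 50 after the start), and 13 of these (76.5%) held CANNTG on either strand, as did 72.3% of all 32851 windows. CAGCTG was found in 4 of the 17 (23.5%, against 16.3% of all windows) and CACCTG in 6 (35.3%, against 20.2%), both of which are also CANNTG. Chrnd, Mymk and Mymx had no window.

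Developmental sarcomere genes rose in 9 of 16 cases and 1 fell (median 1.11, 2.12 in pool A and 1.03 in pool B). Myh3 was at 5.65, 9.24, 39.99, 7.71 and 4.34 CPM in the wild type and 135 to 866 CPM (median 384) in the knockout (4.89, SE 0.52, adjusted p = 1.11e-08), WT-36 being the highest of the wild type (6.02 without it), and Myh8 was at 4.34, 7.70, 10.7, 5.24 and 4.28 CPM against 125 to 805 CPM (median 293) (5.81). Both lie in the myosin heavy chain cluster on chromosome 11, whose members are similar in sequence and may share reads. Myl4 (4.51), the cardiac and fetal troponin Tnnt2 (3.38) and Ankrd1, a stretch-responsive protein of the titin filament (3.71), rose too. Actc1, the fetal actin, varied from 48.6 to 2483 CPM in the wild type and did not pass (0.40, adjusted p = 0.575), but it was higher without WT-34, WT-35 and WT-36 (1.68, adjusted p = 0.017). Lmod2, an actin nucleator, fell (-0.97).

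Per kilobase of exon, Myh3 and Myh8 together made up 0.0447 ± 0.0677% (SD, n = 5) of the signal of 8 myosin heavy chains in the wild type and 3.14 ± 3.14% (SD, n = 6) in the knockout. The highest wild-type share was 0.166% and the lowest knockout share 0.672%, so the groups did not overlap, and HOM-39 held the highest share at 8.98%. Myh4 made up 24.2% in WT-36 and 87.02% to 91.4% in the other wild-type libraries, against 59.4% to 87.5% in the knockout. Myh1, the type 2X chain, made up 20.8% in WT-36, 4.95% to 7.38% in the other wild-type libraries and 7.79% to 19.8% in the knockout, so that the knockout libraries lay above all wild-type libraries but WT-36.

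**Figure D3:**
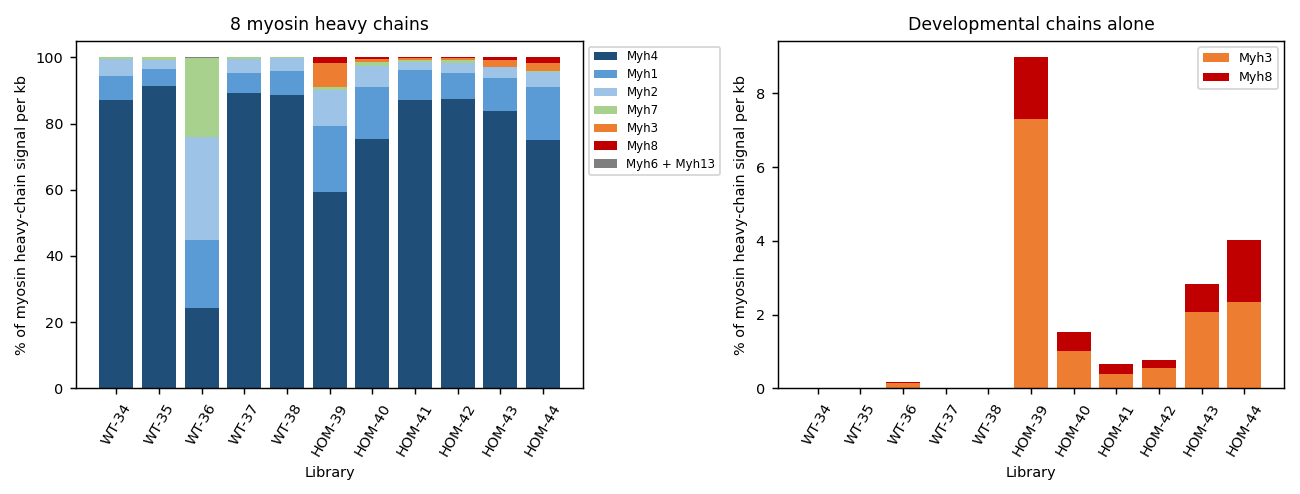
Share of 8 myosin heavy chains in each library, in percent of their summed counts per kilobase of exon (left), and the embryonic and neonatal chains alone on an enlarged axis (right). WT-36 differs from the other wild-type libraries by its Myh7 share of 23.8%, and the knockout libraries reach 0.672% to 8.98% for Myh3 and Myh8 together against at most 0.166% in the wild type.

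Of 34 extracellular matrix genes, 20 rose, 14 of them more than 2-fold, and 1 fell (median 0.67, 0.96 in pool A and 0.45 in pool B). Col3a1, a fibrillar collagen of early scar tissue, was at 1066, 875, 1116, 1024 and 1261 CPM in the wild type and 2416 to 4530.5 CPM (median 3376) in the knockout (1.71, SE 0.21, adjusted p = 5.04e-08). Postn, the matricellular protein periostin, rose from 49.5 ± 36.3 to 582 ± 372 CPM (3.43), Bgn, a small proteoglycan, from 68.3 ± 22.3 to 239 ± 100.3 CPM (1.78), and Col6a3 from 239 ± 17.1 to 665 ± 167 CPM (1.47). Fn1, fibronectin (1.36), Tnc, tenascin C (1.82), and Timp1, an inhibitor of matrix proteases (3.71), rose as well. WT-36 had the highest wild-type level of Postn, whose log2 fold change was 4.11 without it and 4.26 without WT-34, WT-35 and WT-36, and Timp1 was at 4.56 and 4.39. Col1a1 (0.50, adjusted p = 0.0985) and Col1a2 (0.22, adjusted p = 0.424), the chains of type I collagen, did not pass, although Col1a1 did without HOM-43 (0.64, adjusted p = 0.031). Dcn, decorin, was lower with TMM factors (-0.83) and at 0.04 with library totals alone. Of 13 fibroblast markers, 3 rose, among them Mfap5 (1.29) and Pdgfra (0.41, not passing without WT-34, WT-35 and WT-36), and 2 fell, with a summed level of 2207 to 2996 CPM in the wild type and 1221 to 2180 CPM in the knockout.

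Genes of the endoplasmic reticulum unfolded protein response rose in 13 of 18 cases and none fell (median 0.82, 0.91 in pool A and 0.53 in pool B). Hspa5, the luminal chaperone BiP, was at 173, 182, 275, 195 and 180.4 CPM in the wild type and 278 to 550.4 CPM (median 379) in the knockout, with the lowest knockout library just above WT-36 (0.95, SE 0.15, adjusted p = 4.27e-06). Pdia6 (0.92) and Pdia3 (1.02), which shuffle disulfide bonds, Manf, a secreted protective factor (1.17), Edem1, which hands misfolded glycoproteins to degradation (1.36), and the HSP40-associated Sdf2l1 (1.85) rose. Creld2, a chaperone-like secreted protein, rose (0.95), by 2.17 in pool A and 0.47 in pool B on the log2 scale. Xbp1, the spliced transcription factor of the response, rose from 61.2 ± 6.16 to 89.7 ± 21.1 CPM (0.54), and the other 5 members did not pass.

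The 250 bases before the start of Hspa5, Creld2 and Pdia6 are shown because they hold the letters CCAAT and CCACG with 9 bases of any kind between them, the endoplasmic reticulum stress response element that ATF6 and XBP1 are known to bind, here in capitals. The windows are chr2:34771840-34772089, chr15:88819396-88819645 and chr12:17266339-17266588 (RefSeq, GRCm38.p6), all on the plus strand, and the match in Creld2 lies on the opposite strand.
Hspa5: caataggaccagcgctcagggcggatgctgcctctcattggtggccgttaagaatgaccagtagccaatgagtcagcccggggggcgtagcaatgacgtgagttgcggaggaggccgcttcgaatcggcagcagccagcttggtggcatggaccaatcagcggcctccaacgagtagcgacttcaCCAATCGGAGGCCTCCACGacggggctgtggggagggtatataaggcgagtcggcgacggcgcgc
Creld2: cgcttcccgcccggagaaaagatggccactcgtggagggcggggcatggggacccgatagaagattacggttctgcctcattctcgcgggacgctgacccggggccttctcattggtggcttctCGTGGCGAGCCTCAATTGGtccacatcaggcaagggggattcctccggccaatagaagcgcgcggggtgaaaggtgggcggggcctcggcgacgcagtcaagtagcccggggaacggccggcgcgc
Pdia6: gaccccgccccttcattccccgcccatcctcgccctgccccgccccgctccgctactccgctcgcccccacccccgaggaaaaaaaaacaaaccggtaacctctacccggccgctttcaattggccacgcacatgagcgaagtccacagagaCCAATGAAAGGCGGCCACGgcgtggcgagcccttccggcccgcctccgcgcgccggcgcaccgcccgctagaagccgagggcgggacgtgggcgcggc
The match starts 65 bases before the start of Hspa5, 126 bases before that of Creld2 and 98 bases before that of Pdia6. Of the 13 risen genes of the list, 11 had a window, and 6 of these (54.5%) held the letters on either strand: Calr, Creld2, Hsp90b1, Hspa5, Pdia6 and Syvn1. Of all 32851 windows, 39 (0.119%) held them. This search was chosen after the values were seen, and a match is a description of letters only.

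The integrated stress response list was split, with 12 of 28 genes higher and 6 lower (median 0.41, 0.70 in pool A and 0.12 in pool B). Genes of amino acid and one-carbon metabolism were among those that rose: Asns, asparagine synthetase, went from 2.01 ± 0.697 to 9.39 ± 3.95 CPM (2.12), Psat1, of serine synthesis, from 3.86 ± 2.56 to 15.4 ± 7.43 CPM (1.79), Mthfd2, of mitochondrial folate metabolism, from 4.48 ± 1.46 to 14.3 ± 3.60 CPM (1.54), and the transporter subunits Slc7a5 (2.07) and Slc3a2 (0.69) went with them. Atf3, an immediate stress factor, was at 2.17, 1.85, 13.0, 2.76 and 3.68 CPM in the wild type and 27.7 to 58.8 CPM in the knockout (2.81). Without WT-36 its log2 fold change was 3.75 and that of Psat1 2.56, and without WT-34, WT-35 and WT-36 they were 3.52 and 2.66. Gdf15, a circulating stress hormone, rose from 0.212 ± 0.169 to 1.19 ± 0.602 CPM (2.67, and 3.68 without the 3 libraries). Fgf21, another such hormone, had 0 counts in the wild type and 39 in the knockout, with 1 to 24 counts per knockout library. Pooled over the animals, it was at least 5.84-fold higher against an assumed floor of 3 counts over the wild-type group. Atf4, the factor that drives this response, was at 125 ± 17.4 and 125 ± 32.9 CPM (-0.01, adjusted p = 0.954), and Ddit3, its pro-apoptotic partner, did not pass either (-0.34, adjusted p = 0.281), although it was lower without HOM-40 (-0.71, adjusted p = 0.0026). With library totals alone Atf4 was at 0.81, the median of all genes being 0.82. Cth, of cysteine synthesis (-3.28), Chac1, which degrades glutathione (-2.64, and -3.39 without the 3 libraries), Vldlr, a lipoprotein receptor (-1.23), and Atf5, a factor of the mitochondrial response (-1.16), fell.

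Of 25 genes of oxidative stress and NRF2 targets, 14 rose and 6 fell (median 0.67, 0.71 in pool A and 0.57 in pool B). Nqo1, a quinone reductase, was at 23, 15.7, 27.1, 17.3 and 22.4 CPM in the wild type and 47.0 to 158 CPM (median 82.8) in the knockout (2.01, SE 0.36, adjusted p = 2.61e-05). Srxn1, sulfiredoxin, rose from 31.1 ± 5.50 to 164 ± 122 CPM (2.36), Hmox1, heme oxygenase, from 6.05 ± 0.432 to 44.2 ± 51.4 CPM (2.62, and 1.90 without HOM-40), Mt1, a metallothionein, from 8.27 ± 3.72 to 116 ± 88.6 CPM (3.61), and Ucp2, a mitochondrial carrier, from 9.0 ± 1.86 to 48.9 ± 17 CPM (2.39). Gpx1, a cytosolic peroxidase, rose by 1.07 and Pgd, of the pentose phosphate pathway, by 1.41 on the log2 scale. Sod2, the mitochondrial superoxide dismutase, fell from 329 ± 6.71 to 154 ± 25.9 CPM (-1.08, adjusted p = 2.50e-11), and Gstm1 (-1.21), Mgst1 (-1.76), both glutathione transferases, and Gpx3, the secreted peroxidase (-1.33), fell as well. The core letters of the antioxidant response element, TGACNNNGC, were found in 5 of 12 promoter windows of the risen members (41.7%, against 12.4% of all windows), a search also chosen after the values were seen.

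Nuclear genes of oxidative phosphorylation were lower in 39 of 40 cases with TMM factors (median -0.57, -0.43 in pool A and -0.67 in pool B), and their median was 0.24 with library totals alone. Cox6a2, the muscle form of a complex IV subunit, was at 525, 476, 547, 471 and 430.3 CPM in the wild type and 132 to 311 CPM (median 204) in the knockout, without overlap (-1.23, SE 0.13, adjusted p = 1.69e-09). Ndufa1 (-1.03) and Ndufs1 (-0.87), subunits of complex I, fell and stayed below 0 with library totals alone (-0.20 and -0.04). Their summed level was 13703 to 18934 CPM in the wild type and 7693 to 14086 CPM in the knockout, so that the highest knockout library, HOM-41, overlapped the wild type.

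All 8 tested messengers of the mitochondrial genome fell more than 2-fold (median -1.52), and 5 of the 13 did not pass the filter on low counts. mt-Co1, of complex IV, was at 37689, 25697, 29622, 31979 and 27382 CPM in the wild type and 9718 to 16452 CPM (median 12472) in the knockout (-1.26, SE 0.18, adjusted p = 3.84e-07). mt-Nd1 was at 3499.6 to 10327 CPM and 954 to 2206 CPM (-2.09), and mt-Nd2 was at 663 to 4519 CPM and 229 to 642 CPM (-2.44, and -1.83 without WT-34, WT-35 and WT-36). The median was -2.46 in pool A, whose wild type was WT-34 and WT-35 alone, and -0.80 in pool B, a difference that was not tested. Without WT-34, WT-35 and WT-36, 4 of the 8 passed (median -1.12). mt-Nd5 was at -1.14 in all, at -2.33 in pool A and at 0.02 in pool B, and it did not pass without WT-34 (-0.58, adjusted p = 0.26). Mitochondrial ribosomal RNA took 6.38% to 22.3% of the counts in the wild type and 2.99% to 6.69% in the knockout, and the part of these shares in the result was not tested.

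TCA cycle and pyruvate dehydrogenase genes were lower in 23 of 25 cases with TMM factors (median -0.63, -0.54 in pool A and -0.64 in pool B), against a median of 0.19 with library totals alone. Suclg2, a succinyl-CoA ligase subunit, fell from 50.4 ± 3.98 to 22.1 ± 4.53 CPM (-1.19, adjusted p = 5.76e-11). Idh3b (-0.87) and Pdha1, the entry subunit of pyruvate dehydrogenase (-0.84), fell too and were at -0.05 and -0.01 with library totals alone. Fatty acid genes were lower in 20 of 25 cases and 1 rose (median -0.72, -0.34 in pool A, -0.93 in pool B, -0.56 without WT-34, WT-35 and WT-36, and 0.07 with library totals alone). Lpl, lipoprotein lipase, was at 562, 416, 1578, 473 and 409 CPM in the wild type and 167 to 229 CPM in the knockout (-1.74, and -1.07 without WT-34, WT-35 and WT-36), and Acadm, the medium-chain dehydrogenase, fell from 336 ± 94.9 to 149 ± 27.2 CPM (-1.14). WT-36 held the highest wild-type value of both. Angptl4, which inhibits lipoprotein lipase, rose from 9.28 ± 5.28 to 38.9 ± 16.4 CPM (1.89).

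Of 17 regulators of mitochondrial biogenesis, 8 were lower and 1 rose (median -0.34, and 0.50 with library totals alone). Ppara, a fatty acid receptor, fell from 17.5 ± 9.09 to 5.80 ± 1.5 CPM (-1.6), Perm1 from 331 ± 108 to 158 ± 22.4 CPM (-1.05), and Esrrb from 12.4 ± 10.1 to 3.42 ± 0.877 CPM (-1.91). Esrrb was at 30.1 CPM in WT-36, and its log2 fold change was -1.13 without that library and -0.98 without WT-34, WT-35 and WT-36. Ppargc1a, the coactivator PGC-1alpha, was at 42.6, 45.3, 64.4, 34.2 and 27.8 CPM in the wild type and 13.2 to 33.9 CPM in the knockout (-1.02, adjusted p = 0.000628), and it did not pass without WT-34, WT-35 and WT-36 (-0.49, adjusted p = 0.18). Pprc1, a relative induced in growing cells, rose (1.09).

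The series title names mitochondrial swelling, which calcium uptake and the permeability pore are known to govern. Of 24 genes of these functions and of mitochondrial dynamics, 14 were lower and 6 higher (median -0.33 with TMM factors and 0.51 with library totals alone). Slc25a4, the ADP/ATP carrier of muscle, fell from 3712 ± 373 to 1970.2 ± 465 CPM (-0.90), while its proliferating-cell counterpart Slc25a5 was at 29.98, 24.3, 45.9, 28.4 and 34.7 CPM in the wild type and 60.6 to 101 CPM (median 90.2) in the knockout (1.36). Vdac1, the outer membrane channel, fell from 1260.4 ± 116 to 607 ± 124 CPM (-1.05), and Mfn1, a fusion GTPase, from 243 ± 27.6 to 95.9 ± 9.91 CPM (-1.33). Mcu, the pore of the calcium uniporter, rose from 41.4 ± 3.43 to 63.2 ± 6.16 CPM (0.61), and its dominant-negative relative Mcub from 1.16 ± 0.806 to 4.86 ± 1.77 CPM (1.68). Ppif, cyclophilin D, the regulator of the pore, was at 22.3 ± 0.975 and 26.7 ± 1.99 CPM (0.25, adjusted p = 0.047), and it did not pass without WT-34, WT-35 and WT-36 (adjusted p = 0.19) or without any 1 of 10 libraries, HOM-43 being the exception (lowest adjusted p of the 10 0.0509).

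Glycolysis and glycogen genes were lower in 12 of 25 cases and 2 rose (median -0.44, and 0.35 with library totals alone). Hk1, the hexokinase of most other tissues, was at 10.9, 11.1, 17.2, 14.6 and 13.6 CPM in the wild type and 40.9 to 56.7 CPM (median 49.2) in the knockout (1.80, SE 0.14, adjusted p = 1.12e-11), and Gbe1, the glycogen branching enzyme, rose from 93.0 ± 35.3 to 186 ± 33.2 CPM (1.0). Slc2a4, the insulin-regulated glucose carrier GLUT4, fell from 494 ± 49.0 to 255 ± 51.8 CPM (-0.95), Phkg1, of phosphorylase kinase, from 422 ± 173 to 153 ± 65.0 CPM (-1.46), and Ldhb from 214 ± 152 to 54.5 ± 6.5 CPM (-1.95, and -1.33 without WT-34, WT-35 and WT-36).

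Fast fibre genes were lower in 17 of 18 cases with TMM factors (median -0.90, -1.06 in pool A, -0.74 in pool B and -1.16 without WT-34, WT-35 and WT-36), and the median was -0.03 with library totals alone. Myh4 was at 49569, 63935, 6596, 59282 and 58764 CPM in the wild type and 6979 to 30826 CPM (median 20918) in the knockout (-1.25, SE 0.31, adjusted p = 0.00104), so that WT-36 lay below every knockout library and the other 4 above them. Actn3, alpha-actinin of fast fibres (-1.39), and Mylk2, myosin light chain kinase (-1.39), fell as well. Tnnt3, the fast troponin T, fell from 14936 ± 4822 to 6856 ± 2682 CPM (-1.13). Mylpf, the fast regulatory light chain, was at 6842 ± 2680.1 and 6941 ± 2686 CPM and did not pass (0.02, adjusted p = 0.954).

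Slow fibre genes were lower in 11 of 15 cases and 1 rose, with a median of -1.96, but the median was -0.40 without WT-36. Their summed level was 31767 CPM in WT-36, 3244 to 4639 CPM in the other wild-type libraries and 2801 to 3629 CPM in the knockout, and 6 of the 15 fell without WT-34, WT-35 and WT-36 (median -0.55). The median was -0.19 in pool A and -2.69 in pool B, the pool of WT-36. Myh7 was at 386, 659, 9293, 591 and 130.1 CPM in the wild type and 96.0 to 339 CPM in the knockout, and its log2 fold change moved from -3.14 to -0.65 (adjusted p = 0.33) without those 3 libraries. Tnnt1 went from -1.96 to 0.03, Tnnc1 from -2.01 to 0.07 and Atp2a2, the slow calcium pump, from -1.51 to 0.49 (0.29 without WT-36 alone). Myl2, the slow regulatory light chain, fell in both fits (-2.61 and -1.40), and so did Myh2, the type 2A chain counted with the fast genes (-1.75 and -1.24). Casq2, calsequestrin of slow and cardiac muscle, rose in both (1.0 and 1.91).

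Excitation-contraction coupling genes were lower in 17 of 26 cases and 3 rose (median -0.63, -0.74 in pool A, -0.51 in pool B, and 0.23 with library totals alone). Cacna1s, the voltage sensor of the T-tubule, was at 1029, 1538, 914, 1323 and 1349 CPM in the wild type and 288 to 722 CPM (median 523) in the knockout, without overlap (-1.23, SE 0.15, adjusted p = 4.09e-08). Ryr1, the calcium release channel it opens, fell from 4424 ± 672 to 2226 ± 653 CPM (-0.99), Stac3, which couples the pair, from 176 ± 36.3 to 67.4 ± 19.8 CPM (-1.38), Trdn, triadin, from 1482 ± 455 to 527 ± 155 CPM (-1.49), and Jph1, which holds the membranes together, from 467 ± 133 to 191 ± 54.1 CPM (-1.29). These 5 stayed below 0 with library totals alone. Sln, sarcolipin, an inhibitor of the calcium pump, was at 2.17, 1.85, 40.9, 0.507 and 0.921 CPM in the wild type and 12.6 to 51.9 CPM (median 43) in the knockout. Its log2 fold change was 1.88 (adjusted p = 0.0137) and 5.84 without WT-34, WT-35 and WT-36. Mrln, myoregulin, another inhibitor of that pump, fell from 26.5 ± 11.6 to 7.63 ± 2.80 CPM (-1.77).

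Of 26 genes of the dystrophin complex and membrane repair, 8 rose and 8 fell (median 0.07). The annexins that patch torn membranes rose: Anxa2 was at 56.9, 47.1, 62.4, 44.7 and 49.5 CPM in the wild type and 105 to 303 CPM (median 154) in the knockout (1.69), Anxa1 rose from 25.5 ± 3.77 to 86.5 ± 21.6 CPM (1.66), Anxa4 from 19.6 ± 4.75 to 55.7 ± 7.88 CPM (1.45) and Anxa5 from 55.8 ± 5.93 to 105 ± 24.7 CPM (0.86). Macrophages express annexins as well, and the part of the macrophage markers in these rises was not tested. Capn3, the muscle calpain, fell from 199 ± 24.9 to 77.8 ± 10.9 CPM (-1.35). Dysf, dysferlin (0.24, adjusted p = 0.196), and Utrn, utrophin (0.11, adjusted p = 0.49), did not pass, although Utrn did without WT-36 (0.33, adjusted p = 0.0034).

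Atrophy and autophagy genes were lower in 11 of 24 cases and 3 rose (median -0.34, and 0.45 with library totals alone). Fbxo32, the ubiquitin ligase atrogin-1, was at 278, 251, 409, 348 and 305 CPM in the wild type and 132 to 310.3 CPM (median 182) in the knockout, and it did not pass (-0.69, adjusted p = 0.209). Klf15, a glucocorticoid-induced factor, fell from 32.9 ± 4.39 to 9.77 ± 2.49 CPM (-1.76), Foxo4 from 85.1 ± 25.2 to 36.1 ± 6.99 CPM (-1.22) and Bnip3, of mitophagy, from 98.1 ± 35.6 to 43.6 ± 6.96 CPM (-1.14). Eda2r, a receptor linked to muscle wasting, rose from 21.5 ± 4.56 to 67.8 ± 13.5 CPM (1.58), and the proteasome subunit Psmd11 by 0.76. Mstn, myostatin, was at 74.3, 65.0, 7.62, 89.0 and 110.1 CPM in the wild type and 9.02 to 29.6 CPM in the knockout (-1.85), with WT-36 below all knockout libraries.

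Of 14 Schwann cell and nerve markers, 9 fell, all more than 2-fold, and Ncam1 rose (median -1.5, and -0.82 with 6 falls without WT-34, WT-35 and WT-36). Sox10, the transcription factor that defines Schwann cells, was at 1.30, 1.85, 5.03, 1.13 and 2.17 CPM in the wild type and 0.455 to 1.07 CPM (median 0.775) in the knockout, without overlap and with WT-36 highest (-1.69, SE 0.30, adjusted p = 2.14e-05). It was -1.05 (adjusted p = 0.01) without WT-34, WT-35 and WT-36. Prx, periaxin of the myelin sheath, fell as well (-1.74, and -1.18 without those libraries). Of 10 tendon markers, 8 fell and 1 rose (median -1.30, and -0.78 with 4 falls without the 3 libraries), with Kera at 21.8 to 59.8 CPM and 4.19 to 13.6 CPM (-2.37, and -1.78 without the 3 libraries) and Thbs4 the one that rose (1.25). Of 17 endothelial and mural markers, 12 were lower and 3 higher (median -0.50, and 0.32 with library totals alone), while their summed level was 3437 to 4239 CPM in the wild type and 3841 to 4688 CPM in the knockout. Rgs5, of pericytes, fell from 556 ± 90.0 to 265 ± 36.7 CPM (-1.03), and Tek, an endothelial receptor, from 44.9 ± 7.77 to 23.3 ± 2.80 CPM (-0.95). Of 13 adipocyte markers, 8 fell, but 1 did without WT-34, WT-35 and WT-36, 2 without WT-36 and 5 without HOM-39. Hbb-bt, a beta-globin with near-identical copies, fell from 5.61 ± 2.62 to 1.99 ± 0.487 CPM (-1.48). Of 12 muscle identity genes, 8 were lower and Des, desmin, rose (0.47, adjusted p 0.052 without WT-34, WT-35 and WT-36) (median -0.63, and 0.24 with library totals alone), and Tcap, a titin-capping protein, fell from 2097 ± 399 to 626 ± 169 CPM (-1.72). The part that a changed mix of cells had in the other results was not tested.

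**Figure D4:**
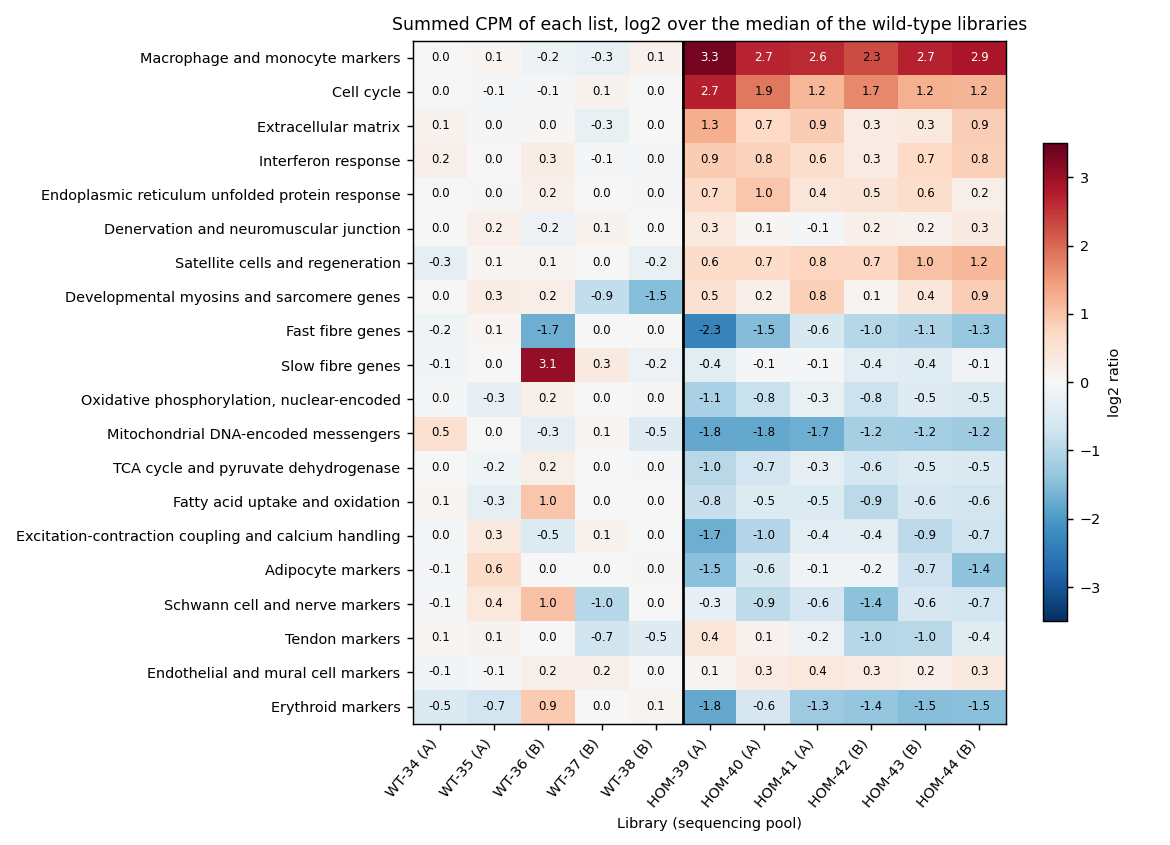
Summed CPM of the members of 20 lists (rows) in each library (columns, sequencing pool in parentheses) as log2 over the median of the 5 wild-type libraries, red higher and blue lower. Macrophage markers were 2.28 to 3.35 higher in the knockout libraries, slow fibre genes were 3.08 higher in WT-36 alone, and HOM-39 had the lowest fast fibre sum at -2.33.

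The knockout effect at 8 weeks was compared with that at 4 weeks, when 946 genes (5.66%) differed between genotypes. Among the 4-week libraries, nuclear ribosomal RNA genes took 29.3% of the counts in HOM-8, 11.6% in WT-3 and 8.49% in WT-4. They took at most 0.777% in the others. HOM-8 also had the lowest total, 6668855 counts. HOM-12 carried a male label but had Xist at 63.8 CPM and Ddx3y at 0.0645 CPM. All were kept, and a fit without all of them was not run. The knockout effect differed between the ages for 4576 genes (27.4%), higher at 8 weeks for 2266 (13.5%) and lower for 2310 (13.8%). Nampt itself was -1.03 at 4 weeks, and the difference of -1.02 between the ages passed the test (adjusted p = 9.61e-06). Its wild-type level was 105.1 to 155.5 CPM at 4 weeks and 169.7 to 235.6 CPM at 8 weeks. In the knockout it was 55.1 to 76.2 CPM and 46.5 to 56.0 CPM. The difference between the ages thus includes a higher wild-type level at 8 weeks. Several genes of regeneration and denervation did not pass at 4 weeks: Myh8 was at 0.36, Myog at 0.09, Chrna1 at 0.02 and Mymk at 0.73, with differences between the ages of 5.45, 3.26, 2.07 and 5.78. All 23 cell cycle genes that rose at 8 weeks, Mki67 among them (-0.14 at 4 weeks, difference 3.97), had a higher effect at 8 than at 4 weeks. The effect was higher at 8 weeks for 15 of 25 macrophage markers and 7 of 25 inflammatory genes. Lgals3 had risen at 4 weeks (2.87), and its difference of 2.02 did not pass (adjusted p = 0.051). Mt2 (3.265), Adam8 (2.94), Mpeg1 (2.73), Ankrd1 (2.35), Srxn1 (1.64) and Cdkn1a (1.49) had also risen at 4 weeks without a difference between the ages that passed.

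Some genes ran the other way. Nmrk2 was 4.03 higher at 4 weeks, and its effect was lower at 8 weeks by a difference of -2.05 (adjusted p = 0.0086). Fbxo32 was 2.11 higher at 4 weeks (difference -2.81, adjusted p = 0.0022), and Pdk4, which shuts pyruvate dehydrogenase off, was 2.32 higher at 4 weeks and -0.18 (adjusted p = 0.784) at 8 weeks (difference -2.5). Ppif was 0.86 higher at 4 weeks and 0.25 at 8 weeks (difference -0.61, adjusted p = 0.0028). Among metabolic lists, 21 of 25 TCA cycle genes, 20 of 25 fatty acid genes and 25 of 40 nuclear oxidative phosphorylation genes had a lower effect at 8 weeks, and their medians at 4 weeks were 0.03, 0.17 and -0.09. Amd1 (-0.50 at 4 weeks), Smox (-0.32) and Ostn (-0.55) did not pass at 4 weeks, and their differences were -3.47, -2.71 and -2.51. Amy1 (-1.92) and Fer1l6 (-1.52) had fallen at 4 weeks. Tspan8 (-2.33) and Mss51 (-2.56) had also fallen at 4 weeks, and their differences between the ages (-0.54 and -0.58) did not pass.

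**Figure D5:**
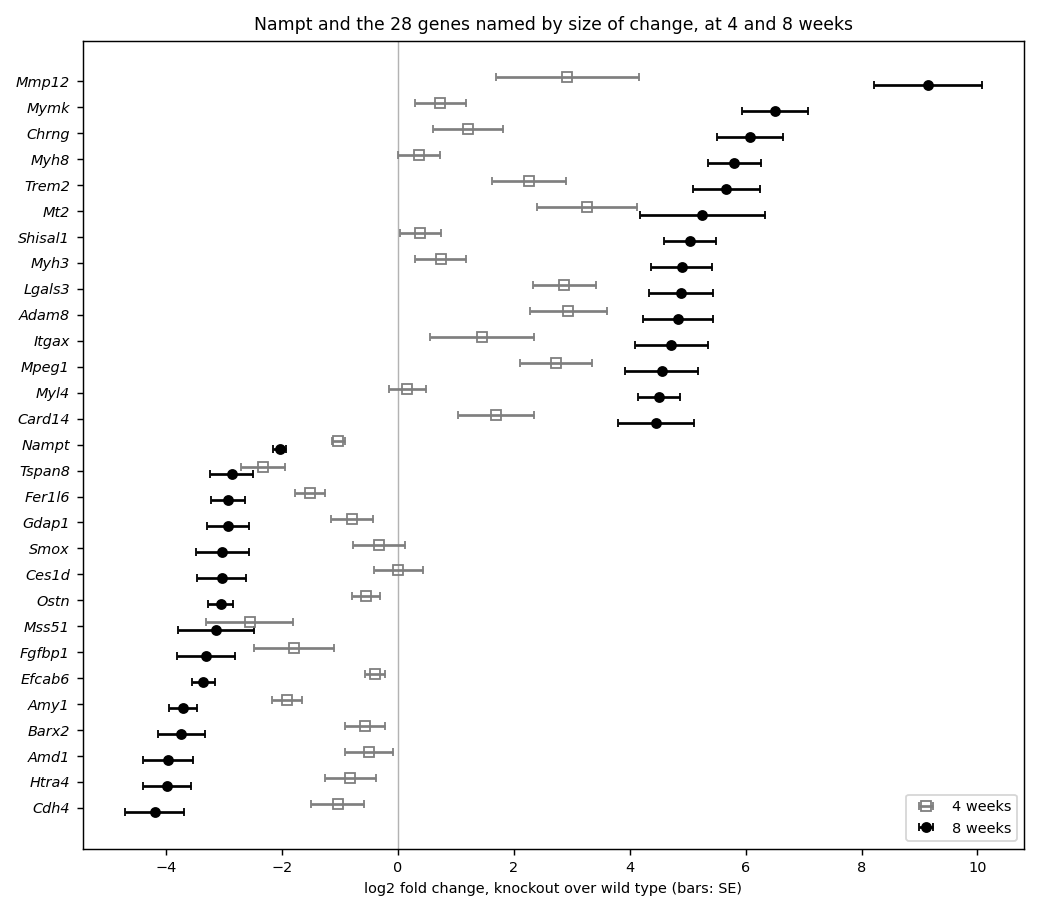
Log2 fold change (knockout over wild type, x axis, bars are SE) at 4 weeks (squares) and 8 weeks (dots) of Nampt and the 28 genes with the largest changes at 8 weeks. Mymk, Chrng, Myh8, Shisal1, Myh3 and Myl4 lie at 1.21 or less at 4 weeks and at 4.51 or more at 8 weeks. Mmp12, Mt2, Lgals3, Adam8 and Mpeg1 lie at 2.73 or more at 4 weeks, although Mmp12 did not pass at that age.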

How the data were processed

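Whole-gene read counts from gastrocnemius RNA were analysed. Per the labels' protocols, RNA was extracted with a Qiagen RNeasy kit, ribosomal RNA was depleted in a stranded total RNA library preparation, and 38-bp paired ends were sequenced. The deposited values are raw counts per Ensembl gene, and the submitters' processing notes list the build mm10 with featureCounts 1.5.2, STAR 2.5.2b and edgeR 3.22.0, without saying what each was used for. The annotation and the strand setting of the counting are not given in the sources used here, so overlapping genes and near-identical copies are uncertain. Gene names and coordinates came from GENCODE vM21, which held 50462 of 50686 identifiers.

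Counts were analysed with edgeR 4.0.16 and limma 3.58.1 in R 4.3.3. All 37 libraries entered 1 quasi-likelihood model with 8 groups of genotype and age and the sequencing pool as a term (28 residual degrees of freedom), so that all ages share the estimate of spread. TMM factors, a filterByExpr filter (10 counts per library scaled to depth, 15 in total) and Benjamini-Hochberg adjustment at 0.05 over the 16728 genes tested were used. CPM are counts scaled to the TMM-adjusted library size. Library depth and the share of ribosomal RNA limit the precision of low values, and exact intervals cover counting error only. On simulated counts with known changes, run on 16728 genes for this comparison, 64% of 100 genes changed by 1 on the log2 scale and 87% of 100 changed by 2 were recovered, with 6 calls among the unchanged genes. Only these genes were changed, in random directions, whereas 52.5% of genes were called in the data. The simulation therefore cannot show how calls depend on the scaling between genotypes. No 2 libraries were duplicates.

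The comparison, the 41 gene lists and the tests were chosen with earlier results of these data known. Named were Nampt, the 14 largest rises and the 14 largest falls among genes that passed, whose log2 CPM averaged 1 or more and that passed in the same direction without WT-34, WT-35 and WT-36, leaving out predicted genes, pseudogenes, mitochondrial, ribosomal RNA and sex-linked genes. From each list, members with the smallest p in each direction were named, and other members named were chosen after their values were seen. Alternatives were DESeq2 1.42.0, other scaling factors, no filter, no pool term, each pool alone, the 8-week libraries alone, male-labelled libraries, removal of ribosomal RNA genes, and leaving out libraries. The fit of male-labelled 8-week libraries left out WT-35 only and kept HOM-42. It was thus the same fit as that without WT-35. Removal of ribosomal RNA-like genes and the searches for the stress and antioxidant letters were added after the data were seen. Promoter windows came from RefSeq, GRCm38.p6. Some genes of the lists are not reported here.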

Additional observations from a re-analysis of the deposited data

Results flagged for a closer look

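Nampt and the 28 genes with the largest changes were examined for a library standing apart in either group, on log2(CPM + 0.1), which gave 58 tests, of which chance finds about 1 in 20. A gap to the nearest library above Dixon's limit was found 6 times. Nampt was highest in HOM-43 at 56.0 CPM, with the next knockout library at 49.0. Myl4 was highest among wild-type libraries in WT-35 at 10.8 CPM, with the next at 6.55. WT-36 was lowest for Cdh4 (1.02 CPM, next 12.8) and Fgfbp1 (0.508 CPM, next 13.0) and highest for Barx2 (32.5 CPM, next 7.77). Fgfbp1 was lowest among knockout libraries in HOM-44 (0.329 CPM, next 1.07).

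For 21 of these 29 genes the knockout effect at 8 weeks differed from that at 4 weeks in the test of the difference (edgeR's quasi-likelihood test, Benjamini-Hochberg adjustment). Over all genes tested the share was 27.4%. All but Nampt were chosen for a large change at 8 weeks, which enters this difference, so a high count follows from the choice. The log2 difference, 8 minus 4 weeks, was 5.78 for Mymk, 5.45 for Myh8, 4.87 for Chrng, 4.65 for Shisal1, 4.35 for Myl4 and 4.16 for Myh3. It was 3.41 for Trem2, 3.27 for Itgax and 2.76 for Card14. Among genes that fell it was -3.47 for Amd1, -3.17 for Htra4, -3.17 for Barx2, -3.16 for Cdh4, -3.05 for Ces1d, -2.96 for Efcab6, -2.71 for Smox and -2.51 for Ostn. It was -2.14 for Gdap1, -1.80 for Amy1, -1.41 for Fer1l6 and -1.02 for Nampt.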

How the results depend on the processing

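All libraries gave 8790 called genes at 8 weeks, a separate fit of pool A gave 4286 (2406 higher and 1880 lower), and library totals alone gave 10718 higher and 501 lower. The count stayed within 1.5 times in the other alternatives run. Among these, a fit of the 8-week libraries alone, which takes the spread from those libraries only, gave 6487 genes. In that fit the adjusted p of Nampt in edgeR's quasi-likelihood test was 3.18e-07. Leaving out 1 library gave 7862 to 8992 genes, 3837 to 4517 of them higher and 4025 to 4505 lower, and Nampt between -2.11 and -2.00. The difference from 4 weeks was called for 4576 genes, for 3003 with the 4- and 8-week libraries only, 7393 with library totals alone, 1107 in pool A, 2899 in pool B, and 3781 to 5154 when 1 library was left out. Of 225 genes followed, 211 kept their direction and side of the threshold whichever of the 11 libraries was left out, and 223 did so with DESeq2. Apart from Nampt, the genes followed were chosen by size of change, by small p or after their values were seen. High counts here follow in part from that choice, and the same share over all genes was not taken. With library totals alone 13 changed sign. Pdk4 (0.58), Fbxo32 (0.05) and Ddit3 (0.45) passed in neither fit, and 10 passed in at least 1: Slc25a51 to 0.41, Sirt3 to 0.13, Parp1 to 0.46, Chodl to 0.11, Ccne2 to 0.28, Dcn to 0.042, Atf4 to 0.81, Sirt1 to 0.72, Cd38 to 0.68 and Igf1 to 0.81, all at or below the median of 0.82 over all genes. Without WT-34, WT-35 and WT-36, Tnnt1 went to 0.035, Tnnc1 to 0.073 and Atp2a2 to 0.49. Chrne, Sirt1 and Mylpf, which passed in neither fit, changed sign as well (-0.04, 0.06 and -0.12). Without WT-36 alone Tnnc1 went to 0.0054 and Atp2a2 to 0.29, and in pool A they were at 0.22 and 0.35, and leaving out 1 library gave -2.34 to 0.0054 and -1.80 to 0.29. mt-Nd5 was at 0.024 in pool B. Apart from the settings' own loss of libraries, the cause was not tested. No paired analysis was possible because the libraries come from different animals and the groups share no replicate number. Low depth in WT-34 and WT-35 limits genes of few counts.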

Other observations

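Of 20 p53 targets, 9 rose and 6 fell (median log2 fold change 0.41, 0.66 in pool A and 0.27 in pool B). Cdkn1a, the cell cycle inhibitor p21, was at 2.61, 7.08, 9.70, 5.57 and 5.59 CPM in WT-34 to WT-38 and at 19.5 to 67.9 CPM (median 30.1) in the knockout, above the wild type in all 6 libraries (2.24, SE 0.43, adjusted p = 7.25e-05). Pmaip1, a pro-apoptotic protein, rose from 0.258 ± 0.134 to 2.83 ± 1.94 CPM (3.46). Ccng1, cyclin G, fell from 1628 ± 348 to 767 ± 236 CPM (-1.09), and Perp, a membrane protein, from 2.14 ± 0.676 to 0.520 ± 0.138 CPM (-2.00). Of 20 heat shock proteins, 7 rose and 4 were lower (median 0.12, 0.43 in pool A and 0.12 in pool B). The small chaperones Hspb1 (1.62) and Hspb8 (0.99) rose in all 6 knockout libraries above the wild type, and Hspa1b, which has a near-identical copy, was at 0.434 to 5.44 CPM in the wild type and 6.43 to 69.6 CPM in the knockout (3.09, and 3.73 without WT-36).

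Of 17 circadian clock genes, 7 were lower and Per1 rose (median -0.42, -0.44 in pool A, -0.29 in pool B and 0.40 with library totals alone). Hlf, an output factor of the clock, was at 15.2, 21.3, 5.59, 12.7 and 13.8 CPM in the wild type and 1.43 to 4.70 CPM (median 2.78) in the knockout (-2.20), while Per1 (0.96) did not pass without WT-34, WT-35 and WT-36 (adjusted p = 0.11). The hour at which the tissue was taken is not given in the sources used here. Of 25 myokines and growth signals, 8 rose and 6 fell (median 0.14). Fstl1, a secreted follistatin-like protein, rose from 148 ± 14.3 to 314 ± 95.2 CPM (1.05), Fndc5, the precursor of irisin, fell from 161 ± 68.9 to 63.6 ± 9.86 CPM (-1.32), and Bmp7 fell from 1.64 ± 0.546 to 0.298 ± 0.109 CPM (-2.38). Of 23 genes of lipid and sterol synthesis, 3 rose and 5 fell (median -0.12, and 0.25 without WT-34, WT-35 and WT-36), with Me1, malic enzyme, among those that fell (-1.36). Of 19 aminoacyl-tRNA synthetases and amino acid transporters, 3 rose and 5 were lower (median -0.15, and 0.66 with library totals alone), and 9 were lower without HOM-40.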
